A study of Mus musculus with 6 samples.

Results

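The respiratory chain genes examined here were 101 of the 14250 rows of a gene count table from mouse anterior cingulate cortex (ACC). They were chosen by symbol: every row starting with mt-, Nduf, Uqcr or Atp5, the genes Sdha to Sdhd, and the Cox genes of subunit families IV to VIII. The rule took 13 mitochondrially encoded genes, all of them protein coding, and 88 nuclear genes, and no pseudogene symbol had to be dropped. Tissue came from C57BL/6 mice at postnatal day 45, and each library was made from polyadenylated RNA of 1 mouse. The LPS group held 3 mice given lipopolysaccharide, a bacterial endotoxin, intraperitoneally at 50 µg per kg on day 14, and the Saline group held 3 mice given pyrogen-free saline by the same route on the same day. No genetic change is named in the labels for either group. The mice are called LPS 1 to 3 and Saline 1 to 3 after their labels.

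The respiratory chain sits in the inner mitochondrial membrane. Complex I takes electrons from NADH and complex II takes them from succinate, complex III passes them to cytochrome c, complex IV hands them to oxygen, and complex V, the ATP synthase, uses the resulting proton gradient to make ATP. Neurons rely on this pathway to restore ion gradients after firing. Complexes I, III, IV and V are built from subunits of both genomes, so the mitochondrial transcripts, which are cut from long precursors, have to be matched by nuclear genes scattered over many chromosomes, whereas complex II is wholly nuclear encoded. The question put to these genes was whether the mitochondrially encoded and the nuclear subunits differed between the LPS and Saline mice, and whether both sets did so alike.

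Of the mitochondrially encoded members, 7 encode membrane core subunits of complex I, 1 encodes cytochrome b of complex III, 3 encode the catalytic core of complex IV and 2 encode membrane subunits of complex V. The nuclear members comprised 44 genes of complex I (7 core subunits, 29 accessory subunits and 8 Ndufaf assembly factors), 4 of complex II, 8 of complex III, 15 of complex IV and 17 of complex V. They lay on 19 chromosomes.

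Several mitochondrial genes share bases, which bears on how reads can be counted to them. The stretches given here are from the plus strand of the mouse mitochondrial genome in GRCm38. The first 3 are shown because position alone cannot assign a read within the capitals to a single gene. In the first, at chrM:7912-7984, the capitals are the 43 bases shared by the end of mt-Atp8 and the start of mt-Atp6. In the second, at chrM:10152-10188, they are the 7 bases shared by mt-Nd4l and mt-Nd4, and in the third, at chrM:13537-13565, the 14 bases where mt-Nd5 and mt-Nd6 overlap from opposite strands. The last stretch, at chrM:9459-9518, opens mt-Nd3, the mitochondrial gene that stood apart from the others in level, with its first codon in capitals.
mt-Atp8/mt-Atp6: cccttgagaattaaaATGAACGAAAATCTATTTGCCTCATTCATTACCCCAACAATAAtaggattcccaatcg
mt-Nd4l/mt-Nd4: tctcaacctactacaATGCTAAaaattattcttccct
mt-Nd5/mt-Nd6: ttatcttatactcaaTTAATCTCGAGTAA
mt-Nd3 start: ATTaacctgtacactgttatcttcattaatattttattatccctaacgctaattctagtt
No exon of mt-Nd3 overlaps another annotated gene. Among all members, 27 share exonic bases with another gene in the table. No label says that the kit preserves strand, so a read within the bases shared by a pair on opposite strands could belong to either gene. Without the strand, reads from those shared bases cannot be told apart.

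The libraries held 36168687 to 41270737 counts, and each row was kept by the low-count filter, all 101 members included. Markers of excitatory neurons were measured in all libraries (5 of 5 genes, summed level 5994 to 6337 CPM in LPS and 5811 to 6505 CPM in Saline mice), where CPM are counts scaled to library size with TMM factors. Markers of skeletal muscle, a tissue rich in its own respiratory chain isoforms, summed to 10.5 to 12.2 CPM in LPS and 8.91 to 13.3 CPM in Saline mice (2 of 4 genes measured). Of the 12 marker lists examined, 11 could be summed, and the endothelial sum alone did not overlap, at 226.6 to 231.3 CPM in LPS and 231.4 to 247.2 CPM in Saline mice. Taken singly, all 4 endothelial markers overlapped between groups, 2 of them higher and 2 lower in LPS mice. In other lists single markers did not overlap. Of 5 inhibitory neuron markers, 4 had a log2 change (LPS over Saline) above 0. Gad2 (0.27) and Slc32a1 (0.14) lay above Saline in every LPS mouse (edgeR adjusted p = 0.414 and 0.705). All 4 pan-neuronal markers had one below 0, and Snap25 (-0.13) lay below in every LPS mouse (edgeR adjusted p = 0.717). Over all rows, 6.84% did so each way. The unannotated rows named newGene took 1.61% to 2.03% of counts in LPS and 2.51% to 2.93% in Saline libraries. The part of these marker and newGene differences in the results was not tested. In bulk tissue, fewer cells of a type and less RNA per cell cannot be told apart.

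The 13 mitochondrially encoded genes supplied 9.92% to 12.7% of a library's counts, and the 88 nuclear genes 0.602% to 0.672%. The mitochondrial share was 10.3%, 12.7% and 11.9% in LPS 1 to 3, against 12.4%, 9.92% and 11.1% in Saline 1 to 3. These means of 11.6% ± 1.23 in LPS and 11.1% ± 1.27 in Saline mice (SD, n = 3 each) differed by 0.471 percentage points, less than either SD. The nuclear share was 0.668%, 0.602% and 0.667% in LPS 1 to 3, against 0.652%, 0.672% and 0.671% in Saline 1 to 3. LPS 2 was the lowest library of all for the nuclear set and the highest for the mitochondrial set, and the groups overlapped in both. The nuclear means were 0.646% ± 0.0377 in LPS and 0.665% ± 0.0113 in Saline mice.

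The balance of the genomes within a library does not depend on library scaling. The log2 ratio of mitochondrial to nuclear counts was 3.94, 4.40 and 4.15 in LPS 1 to 3, against 4.25, 3.88 and 4.05 in Saline 1 to 3. The group means were 4.17 ± 0.228 in LPS and 4.06 ± 0.186 in Saline mice (SD, n = 3 each). The difference of 0.10 was smaller than the spread within either group, and without LPS 2 it was -0.01. In linear terms the ratio was 15.4 to 21.1 in LPS and 14.8 to 19.1 in Saline mice.

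**Figure D1:**
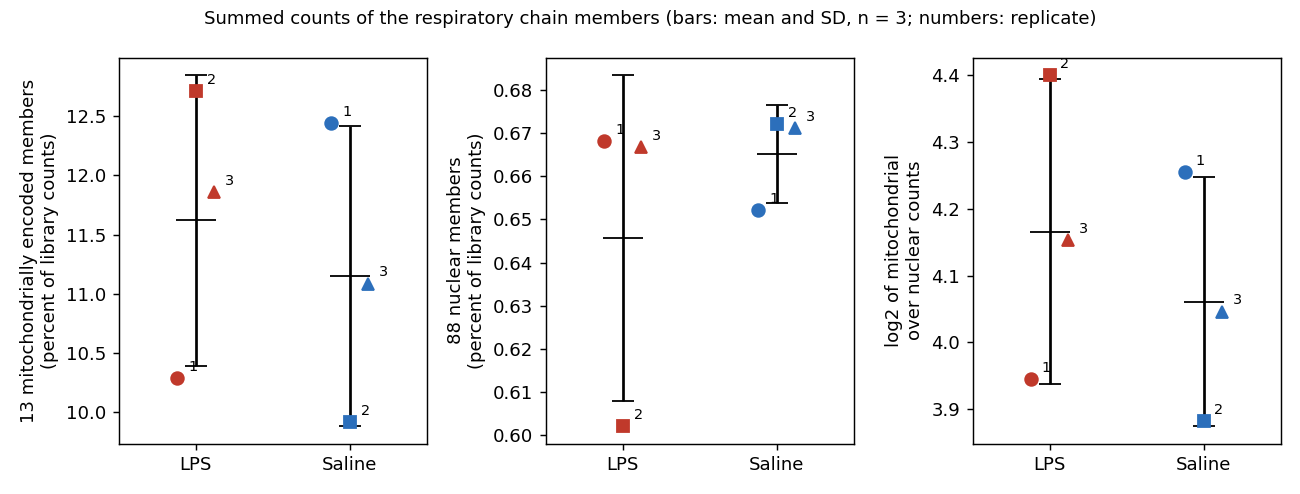
Summed counts of the 13 mitochondrially encoded members (left, percent of library counts), the 88 nuclear members (middle, percent) and the log2 ratio of the sums (right), one point per mouse with the replicate number, bars giving mean and SD (n = 3). The LPS and Saline points overlap in each panel, and LPS 2 is highest on the left and lowest in the middle.

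No respiratory chain gene passed an adjusted p of 0.05 in edgeR's quasi-likelihood test over all 14250 rows, of which 0.288% did. At an unadjusted p under 0.05 there were 5 members, 1 higher and 4 lower in LPS mice, against 7.17% of all rows, 3.63% higher and 3.54% lower. At an adjusted p under 0.1 edgeR had 1 member lower, mt-Nd3, where 0.26% of all rows were. The limma-voom fit called 0 members (0.239% of all rows). DESeq2, which called 0.982% of all rows, called 2 members, mt-Nd3 and Ndufb5, both lower in LPS mice (0.561% of all rows were called lower). In 9 members every LPS mouse lay below every Saline mouse, where 6.84% of all rows did so, and in 0 members was every LPS mouse above (6.84% of all rows). The other 92 members overlapped between groups. Of the 9, 7 belong to complex I (mt-Nd3, Ndufb3, Ndufb5, Ndufb10, Ndufb11, Ndufs6 and Ndufs8), 1 to complex II (Sdha) and 1 to complex V (Atp5g1).

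The members' log2 changes (LPS over Saline) were small in both genomes and leaned in different directions. The median was 0.08 over the mitochondrially encoded genes, with 11 above 0 and 2 below, and -0.05 over the nuclear genes, with 27 above and 61 below. Over all rows the median was 0.00, and 49.6% of rows lay below 0. Neither lean held in every subset of the mice: the mitochondrial median was -0.02 without LPS 2 and -0.01 without Saline 2, and the nuclear median was 0.00 without LPS 2 and -0.01 without Saline 2. The members share their 6 libraries, so these counts are not independent of each other.

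**Figure D2:**
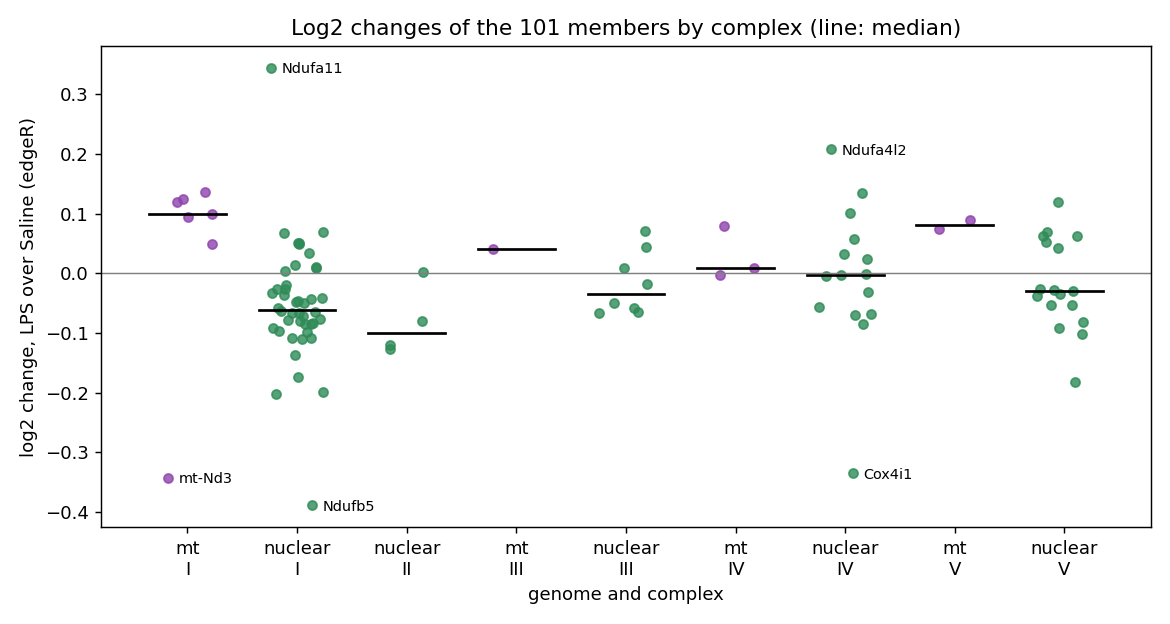
Log2 change (LPS over Saline, edgeR) of each of the 101 members, grouped by genome and complex, with a line at each group's median. The points run from -0.39 to 0.34, with Ndufb5, mt-Nd3 and Cox4i1 lowest and Ndufa11 highest.

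Per length, most of the mitochondrial genes had the highest levels in the polyadenylated RNA measured. By the authors' FPKM (fragment counts scaled by gene length and library size), 12 of the 13 held ranks 1 to 12 of all rows, averaged over the 6 libraries. First was mt-Co1, the catalytic subunit of complex IV, at 23436 FPKM, followed by mt-Atp8 (11263 FPKM) and mt-Cytb (10202 FPKM). The remaining ones ran through mt-Atp6, mt-Nd1, mt-Co2, mt-Nd4, mt-Nd2, mt-Nd4l, mt-Co3 and mt-Nd5 to mt-Nd6 (3367 FPKM), the only one on the other strand. The exception was mt-Nd3 at 748 FPKM, rank 25, or 0.112 of the median mitochondrial level. At 348 bases it is a short gene. Only mt-Nd4l (297 bases) and mt-Atp8 (204 bases) are shorter, and each shares bases with a longer gene on the same strand. How far length bears on the counts of mt-Nd3, or on their differences between libraries, was not tested. As no label says that strand was kept, reads counted to mt-Nd6 could come from either strand. The most abundant nuclear member was Cox6a1 at 511.8 FPKM (rank 44).

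The 12 mitochondrial genes other than mt-Nd3 varied together from mouse to mouse, and the variation was not aligned with treatment. For mt-Co1 the level was 34486, 43693 and 41049 CPM in LPS 1 to 3, against 44697, 34625 and 39234 CPM in Saline 1 to 3. For mt-Nd5, a proton-pumping subunit of complex I, it was 8758, 12290 and 10185 CPM in LPS 1 to 3, against 11302, 8257 and 9099 CPM in Saline 1 to 3. LPS 2 and Saline 1 were high and LPS 1 and Saline 2 low in both genes, so the groups overlapped throughout. LPS 2 and Saline 1 were the top pair of libraries for all 12, and LPS 1 and Saline 2 the lowest pair for 11.

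Within a group these 12 genes differed between mice by a factor of 1.09 to 1.40 among LPS mice and of 1.17 to 1.37 among Saline mice. Their log2 changes ran from -0.003 for mt-Co3 to 0.14 for mt-Nd6, with SEs of 0.0705 to 0.165 and edgeR adjusted p from 0.887 to 0.998. The narrowest spread was that of mt-Co3, which encodes the third core subunit of complex IV: 4802, 5235 and 4951 CPM in LPS 1 to 3, against 5425, 4655 and 4938 CPM in Saline 1 to 3. Cytochrome b, encoded by mt-Cytb, averaged 12959 ± 1533 CPM in LPS and 12592 ± 1641 CPM in Saline mice (SD, n = 3 each). The ATP synthase subunit gene mt-Atp6 averaged 6983 ± 856 CPM in LPS and 6563 ± 805 CPM in Saline mice. In both genes the group means lay closer together than the mice of either group.

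**Figure D3:**
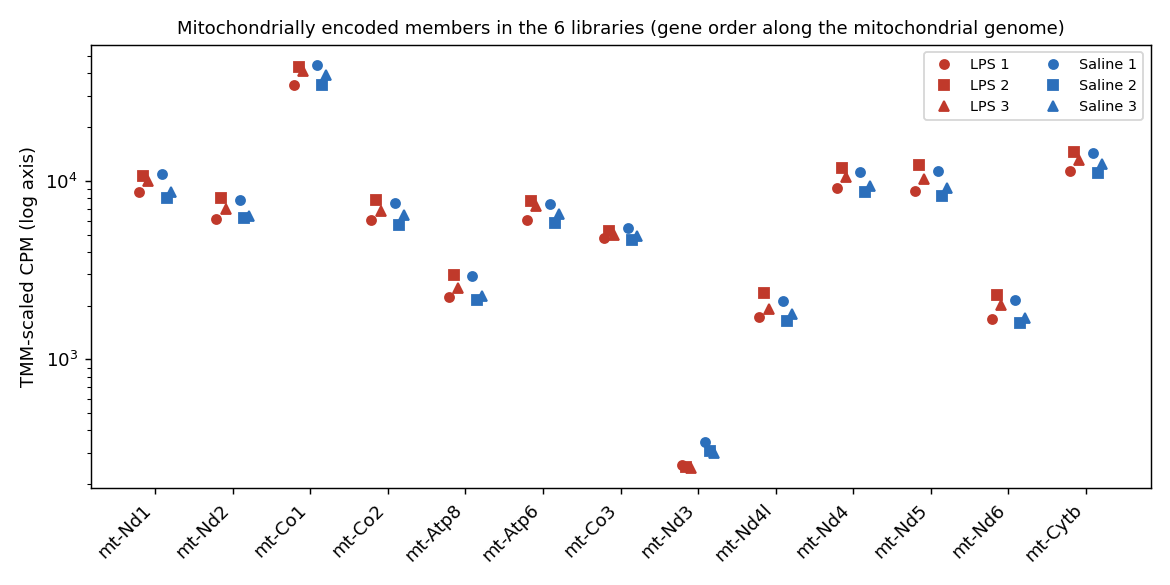
TMM-scaled CPM (log axis) of the 13 mitochondrially encoded genes in gene order, one point per mouse. In mt-Nd3 the 3 LPS mice sit together at 246 to 257 CPM, below the Saline mice at 300.5 to 345 CPM, while in the other genes the groups overlap.

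Across the 6 libraries, the median Pearson correlation of log2 CPM was 0.958 between pairs of mitochondrial members, 0.290 between pairs of nuclear members and -0.342 between a mitochondrial and a nuclear member. These describe 6 libraries that share depth and scaling, and they carry no test. The nuclear members were lowest in LPS 2 for 49 of 88 genes and highest in Saline 2 for 33. The median deviation of a nuclear member from its own mean was -0.09 (log2) in LPS 2 and 0.07 in Saline 2, and between -0.004 and 0.023 in the other libraries. For mitochondrial members the deviations in those libraries had the other sign, at 0.22 in LPS 2 and -0.22 in Saline 2. Over all rows the median deviations were 0.00 to 0.01.

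**Figure D4:**
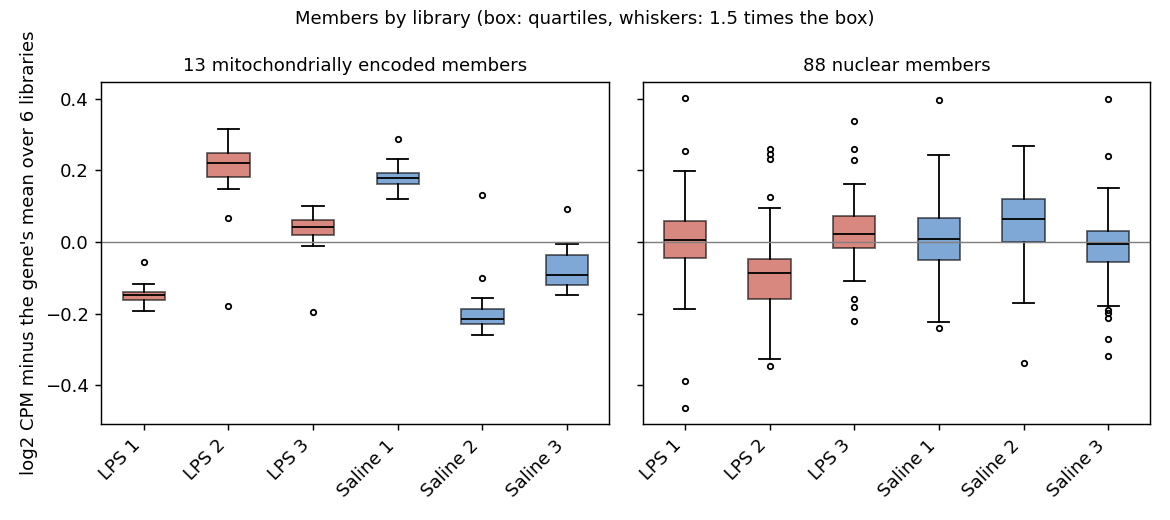
Deviation of each member's log2 CPM from its mean over the 6 libraries, for mitochondrially encoded (left) and nuclear (right) members, with boxes for the quartiles. The mitochondrial boxes sit high in LPS 2 and Saline 1 and low in LPS 1 and Saline 2, and the nuclear box of LPS 2 sits lowest.

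The gene mt-Nd3 (ENSMUSG00000064360, chrM:9459-9806, plus strand, GRCm38) encodes a small membrane subunit of complex I. It stood at 257, 249 and 246 CPM in LPS 1 to 3, against 345, 309 and 300.5 CPM in Saline 1 to 3. The groups did not overlap, and the LPS mice lay within a factor of 1.04 of each other. The means were 250.8 ± 5.54 CPM in LPS and 318 ± 23.4 CPM in Saline mice (SD, n = 3 each). The log2 change was -0.34 (SE 0.0636), which missed the threshold in edgeR (adjusted p = 0.0900) and passed it in DESeq2 (adjusted p = 0.00147). Over the other fits and the libraries left out, the log2 change ran from -0.38 to -0.28 and the adjusted p from 0.00147 to 0.261, the highest without Saline 1, and DESeq2 was the only fit under 0.05.

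The level of mt-Nd3 did not follow that of the other mitochondrial genes. In LPS 2, where the others were high, it was level with LPS 1, where they were low. As a share of the mitochondrial counts of its own library it took 0.254%, 0.192% and 0.210% in LPS 1 to 3, against 0.269%, 0.313% and 0.276% in Saline 1 to 3. These shares, a measure added after the data were seen, did not overlap either, and their means were 0.219% ± 0.0317 in LPS and 0.286% ± 0.0240 in Saline mice. The authors' FPKM gave 687, 639 and 647 in LPS 1 to 3, against 881, 825 and 806 in Saline 1 to 3. Among the other mitochondrial genes, mt-Nd4, a proton-pumping subunit of complex I, was the only one whose share did not overlap, at 8.97%, 9.07% and 8.89% in LPS 1 to 3, against 8.74%, 8.75% and 8.59% in Saline 1 to 3. Shares of 1 total are not independent.

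**Figure D5:**
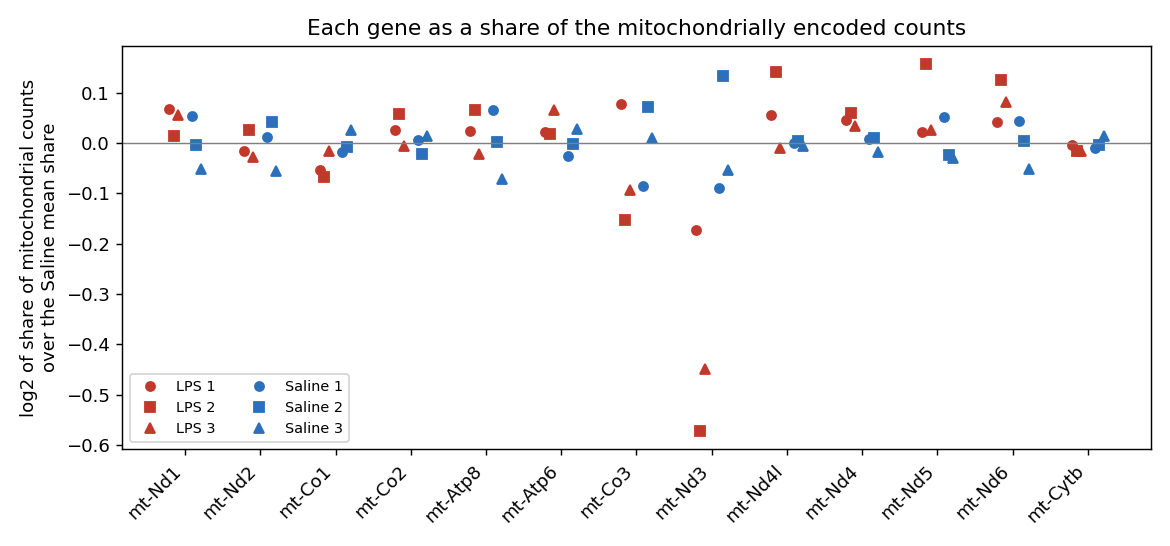
Each mitochondrial gene as a share of the 13 genes' summed counts, as log2 over the mean Saline share, one point per mouse. All LPS points of mt-Nd3 lie below all Saline points, and those of mt-Nd4 lie slightly above, while the other genes overlap.

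Nuclear complex I genes lay mostly just below the Saline level. Of 44, 33 had a log2 change below 0, with a median of -0.06, and 6 lay below Saline in every LPS mouse. Over all rows, 49.6% had a log2 change below 0 and 6.84% lay below Saline in every LPS mouse. The 29 accessory subunits, which surround the core without catalysing electron transfer, had a median of -0.07 (24 below 0). The 7 nuclear core subunits, which together hold the flavin and the iron-sulfur clusters, also had a median of -0.07 (5 below 0), and the 8 assembly factors a median of -0.01 (4 below 0).

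The largest difference downward was that of Ndufb5, an accessory subunit of the membrane arm (ENSMUSG00000027673, chr3:32736990-32751566, plus strand, GRCm38). It stood at 34.3, 29.4 and 32.2 CPM in LPS 1 to 3, against 42.7, 39.8 and 43.1 CPM in Saline 1 to 3. The groups were well apart, with the highest LPS mouse below the lowest Saline mouse. The means were 32.0 ± 2.48 CPM in LPS and 41.9 ± 1.83 CPM in Saline mice (SD, n = 3 each). The log2 change was -0.39 (SE 0.0786), with an adjusted p of 0.132 in edgeR and 0.00897 in DESeq2. The edgeR value ran from 0.114 to 0.391 when 1 library was left out, and limma-voom gave 0.190.

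Ndufb5 shares exonic bases with Mrpl47, a mitochondrial ribosome gene on the opposite strand. Mrpl47 had 9.16, 9.39 and 8.57 CPM in LPS 1 to 3, against 10.3, 11.1 and 10.3 CPM in Saline 1 to 3, and its groups did not overlap either (log2 change -0.23, SE 0.0995, edgeR adjusted p = 0.696). How far reads of the pair were counted to one or the other was not tested.

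Among other accessory subunits, Ndufb11 (chrX:20615326-20617619, minus strand) had 36.0, 34.0 and 35.1 CPM in LPS 1 to 3, against 39.8, 40.5 and 40.3 CPM in Saline 1 to 3. All LPS mice lay below all Saline mice, and the log2 change was -0.20 with an SE of 0.0634 (edgeR adjusted p = 0.485). Ndufb3, Ndufb10 and Ndufs6 also lay below Saline in every LPS mouse, with log2 changes of -0.20, -0.10 and -0.17, and so did the core subunit gene Ndufs8 with -0.11. Their edgeR adjusted p were 0.705, 0.783, 0.762 and 0.783. The exons of Ndufb11 overlap Rbm10 and those of Ndufs6 overlap Mrpl36, each on the opposite strand. Rbm10 had a log2 change of 0.07 and Mrpl36 one of 0.23, both opposite in sign to their partner.

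The largest difference upward was that of Ndufa11, an accessory subunit of the membrane arm (chr17:56717767-56722141, plus strand). It had 44.7, 40.0 and 30.2 CPM in LPS 1 to 3, against 30.6, 30.5 and 29.5 CPM in Saline 1 to 3. LPS 1 and LPS 2 were high, and LPS 3 was level with the Saline mice, which differed little among themselves. The log2 change was 0.34 (SE 0.131, edgeR adjusted p = 0.633), and without LPS 3 the adjusted p was 0.0812. The most abundant nuclear gene of complex I per length was Ndufb9, at 85.8 FPKM, with a log2 change of -0.07 (SE 0.0647). Among assembly factors the smallest p belonged to Ndufaf4 and Ndufaf1, whose log2 changes were 0.07 and -0.08 with edgeR adjusted p of 0.898 and 0.882. Of the assembly factors, Ndufaf6 varied most within a group, at 2.84, 4.45 and 4.14 CPM in LPS 1 to 3, against 3.14, 4.22 and 3.78 CPM in Saline 1 to 3, and the groups overlapped.

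Complex II, succinate dehydrogenase, also serves the citric acid cycle. Its 4 genes summed to 513.7, 492.2 and 496.2 CPM in LPS 1 to 3, against 517.5, 531.9 and 537.7 CPM in Saline 1 to 3. This was the only complex, in either genome, whose summed levels did not overlap, and its nearest mice were only a few CPM apart. The means were 500.7 ± 11.4 CPM in LPS and 529.1 ± 10.4 CPM in Saline mice (SD, n = 3 each). Most of the sum was Sdha, the flavoprotein that oxidises succinate (chr13:74322254-74350280, minus strand). Sdha had 360.6, 357.3 and 347 CPM in LPS 1 to 3, against 376.5, 368.2 and 380.5 CPM in Saline 1 to 3, with all LPS mice lower. Its log2 change was -0.08 (SE 0.0498), and edgeR gave an adjusted p of 0.787. The iron-sulfur subunit gene Sdhb (-0.12), the membrane anchor Sdhd (-0.13) and the other anchor Sdhc (0.002) overlapped between groups.

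Complex III, the cytochrome bc1 complex, had a median log2 change of -0.03 over its 8 nuclear genes, 5 of them below 0. All 8 overlapped between groups. The most abundant per length was the core protein gene Uqcrc1 at 116.7 FPKM. Uqcrc1 had 209.3, 204.6 and 216.7 CPM in LPS 1 to 3, against 210.7, 207.5 and 208.4 CPM in Saline 1 to 3, which left the groups indistinguishable (log2 change 0.01, SE 0.0515). Uqcrfs1, which encodes the Rieske iron-sulfur protein, and Uqcrc2 had log2 changes of -0.07 and -0.05.

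Complex IV, cytochrome c oxidase, had a median log2 change of -0.003 over 15 nuclear members, and all 15 overlapped between groups. Per length, Cox6a1 (511.8 FPKM) and Cox8a (460.7 FPKM) led, followed by Cox4i1 (350.2 FPKM). Cox6a1 had 288, 333 and 349 CPM in LPS 1 to 3, against 336, 308 and 303 CPM in Saline 1 to 3, so LPS 1 was lowest and LPS 3 highest of all mice (log2 change 0.03, SE 0.0784). Cox8a had 260.1, 264.4 and 298.5 CPM in LPS 1 to 3, against 278.1, 288.7 and 256.5 CPM in Saline 1 to 3, also without separation.

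Cox4i1, which encodes the broadly used form of subunit IV, varied more within its groups than any other member, by up to 1.67-fold. It had 294.7, 220.9 and 237.8 CPM in LPS 1 to 3, against 365, 219.5 and 366.1 CPM in Saline 1 to 3. Saline 1 and Saline 3 were high, and Saline 2 was the lowest of all mice. The log2 change of -0.34 came with an SE of 0.25 and an edgeR adjusted p of 0.824. It was -0.54 (adjusted p = 0.311) without Saline 2 and -0.22 without Saline 3. Cox4i1 overlaps Emc8 on the opposite strand, and Emc8 ranged only from 51.9 to 58.9 CPM over the mice.

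Several complex IV genes have a paralogue used in other tissues or conditions, and those measured here were at low levels. Cox4i2, known from lung, stood at 1.29, 1.04 and 1.53 CPM in LPS 1 to 3, against 1.34, 1.20 and 0.973 CPM in Saline 1 to 3. The heart and muscle isoform Cox6a2 stood at 2.62, 4.25 and 4.25 CPM in LPS 1 to 3, against 4.14, 3.47 and 3.31 CPM in Saline 1 to 3. Neither separated the groups, with edgeR adjusted p of 0.945 and 0.990. Per length the pairs were far apart, with 1.51 FPKM for Cox4i2 beside 350.2 for Cox4i1, and 4.91 FPKM for Cox6a2 beside 511.8 for Cox6a1. Ndufa4, a complex IV subunit once assigned to complex I, averaged 113.5 FPKM and its hypoxia-inducible paralogue Ndufa4l2 3.93 FPKM. Ndufa4l2 had 4.03, 4.13 and 4.79 CPM in LPS 1 to 3, against 3.43, 4.12 and 3.65 CPM in Saline 1 to 3, with Saline 2 above LPS 1 and level with LPS 2. Its log2 change was 0.21 with an SE of 0.159 (edgeR adjusted p = 0.822). For Ndufa4 the log2 change was 0.06, for Cox6b1 -0.003, for Cox7a2 -0.06 and for the supercomplex factor Cox7a2l -0.07.

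Complex V had a median log2 change of -0.03 over 17 nuclear genes, 11 of them below 0. The catalytic beta subunit gene Atp5b was the most abundant per length, at 399.4 FPKM, and its partner Atp5a1 averaged 247.4 FPKM. Atp5b had 830.5, 804.6 and 849.8 CPM in LPS 1 to 3, against 847.9, 855.1 and 828.7 CPM in Saline 1 to 3, with the groups overlapping (log2 change -0.03, SE 0.0506). The 5 subunits of the F1 head had a median of -0.03, and the 8 genes of the stalks and membrane part likewise -0.03.

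The rotating c ring is encoded by Atp5g1, Atp5g2 and Atp5g3, whose mature proteins are identical and whose processed pseudogenes are many, so counts of each are uncertain. Atp5g1 (chr11:96068852-96075670, minus strand) had 43.9, 40.4 and 43.4 CPM in LPS 1 to 3, against 49.9, 50.5 and 44.5 CPM in Saline 1 to 3. All LPS mice were below all Saline mice by counts, where edgeR gave a log2 change of -0.18, an SE of 0.0731 and an adjusted p of 0.658. The authors' FPKM did not show this: Atp5g1 had 27.0, 35.5 and 24.6 FPKM in LPS 1 to 3, against 24.8, 34.6 and 26.4 FPKM in Saline 1 to 3. On the log2(FPKM + 1) scale the change was 0.02, and LPS 2 and Saline 2 were the high mice of that measure. Atp5g2 and Atp5g3 overlapped between groups, with log2 changes of 0.07 and -0.09.

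Nuclear respiratory chain promoters are known for sites of NRF1, of ETS factors such as GABP, of YY1 and of estrogen-related receptors. Promoter sequences from RefSeq (GRCm38.p6), from 250 bases before to 50 bases after each annotated start, were found for 72 of the 88 nuclear members, giving 77 promoters. They were searched on both strands for GCGCA and GCGC with any 1 base between them (NRF1), CCGGAAG (ETS), AAGATGGC (YY1) and TCAAGGTCA (estrogen-related receptors), none of which is contained in another. The NRF1 letters were present in 20 of the 77 (26.0%), against 4.60% of all 32851 mouse promoters of the same length, the ETS letters in 18 (23.4%), against 8.86%, and the YY1 letters in 11 (14.3%), against 2.75%. The letters for estrogen-related receptors were in 2 (2.60%), against 0.423%. The comparison set was neither limited to genes measured here nor matched for base content. Whether these shares are particular to the respiratory chain was therefore not tested. With matches in capitals, 5′ to 3′ on the gene's strand, the promoters given are those of Ndufb5 (chr3:32736813-32737112, plus strand), the nuclear gene DESeq2 called, of Sdha (chr13:74350191-74350490, minus strand), the main gene of the complex whose sums did not overlap, and of Cox6a1 (chr5:115348909-115349208, minus strand), the most abundant nuclear member.
Ndufb5: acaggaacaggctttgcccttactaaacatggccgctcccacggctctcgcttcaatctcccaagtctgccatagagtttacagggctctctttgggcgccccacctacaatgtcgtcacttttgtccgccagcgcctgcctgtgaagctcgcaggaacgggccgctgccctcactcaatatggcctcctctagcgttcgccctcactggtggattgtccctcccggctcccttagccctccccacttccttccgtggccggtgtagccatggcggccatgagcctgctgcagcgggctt
Sdha: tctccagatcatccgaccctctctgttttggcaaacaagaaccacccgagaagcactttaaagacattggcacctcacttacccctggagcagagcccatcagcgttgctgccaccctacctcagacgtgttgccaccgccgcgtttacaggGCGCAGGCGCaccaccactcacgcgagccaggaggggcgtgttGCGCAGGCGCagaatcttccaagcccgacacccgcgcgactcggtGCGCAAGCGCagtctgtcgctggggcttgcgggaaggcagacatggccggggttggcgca
Cox6a1: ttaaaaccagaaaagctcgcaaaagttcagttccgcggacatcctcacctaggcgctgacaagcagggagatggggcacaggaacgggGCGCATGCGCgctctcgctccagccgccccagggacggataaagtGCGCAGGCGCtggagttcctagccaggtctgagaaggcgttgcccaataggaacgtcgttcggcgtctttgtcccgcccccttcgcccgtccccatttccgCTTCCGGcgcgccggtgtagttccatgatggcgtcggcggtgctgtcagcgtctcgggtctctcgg
Sdha holds 3 matches to the NRF1 letters, Cox6a1 holds 2 together with 1 reversed ETS match, and in Ndufb5 none of the 4 strings was found. The 19 members with an NRF1 match had a median log2 change of -0.04 (11 below 0), and the 53 without had -0.05 (42 below 0). Members with an ETS match had a median of -0.05, as had those without. A match is only a string of letters, and its absence only says that these letters are not in this window.

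Genes that serve the chain but fall outside the symbol rule were counted in 5 lists, of which 108 of 111 genes were measured. Of the 108, edgeR, DESeq2 and limma-voom each called 0, and 3 were higher and 3 lower in LPS mice at an unadjusted p under 0.05, where 3.63% of all rows were higher and 3.54% lower. The list medians were -0.02 for partners and assembly factors (40 of 40 measured), 0.00 for mitochondrial DNA upkeep and transcription (30 of 33), -0.01 for regulators (15 of 15), -0.01 for the citric acid cycle (14 of 14) and -0.03 for carriers and antioxidant genes (9 of 9). Together their median was -0.02, with 64 of 108 below 0, against 49.6% of all rows.

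No gene of these lists passed the test, and the few given here were picked after their values were seen. Of the 108, 8 lay above Saline in every LPS mouse and 4 below, where 6.84% of all rows did so each way. Ppargc1a, a coactivator of mitochondrial biogenesis, had a log2 change of 0.07 (SE 0.0759). Tfam, which packages mitochondrial DNA, had 23.5, 21.5 and 22.7 CPM in LPS 1 to 3, against 24.1, 23.9 and 24.4 CPM in Saline 1 to 3, with all LPS mice slightly lower (log2 change -0.10, SE 0.0735, edgeR adjusted p = 0.822). Slirp, whose protein partners Lrpprc in stabilising mitochondrial messages, had 5.13, 5.56 and 4.88 CPM in LPS 1 to 3, against 8.25, 9.34 and 5.89 CPM in Saline 1 to 3. Its groups did not overlap, although Saline 3 lay near the LPS mice, and its log2 change was -0.59 (SE 0.174, edgeR adjusted p = 0.421). For Lrpprc the log2 change was -0.12 (SE 0.0699), and the groups overlapped.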

How the data were processed

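Polyadenylated RNA of the ACC was measured in 6 libraries, 3 per group, each from 1 mouse. The authors deposited raw read counts per gene and, beside them, FPKM values, per the file headers. TopHat2 2.1, DESeq 1.10.1 and GRCm38 are named in the submitters' processing notes (roles, counting program, strand setting and annotation release: not given in the sources used here). Positions were taken from GENCODE M21 on GRCm38. Counts were fitted in R 4.3.3 with edgeR 4.0.16 (TMM factors, robust quasi-likelihood test, treatment only, all libraries), and two-sided p-values were adjusted over all rows by the Benjamini-Hochberg method at 0.05. The filter filterByExpr removed 0 of 14250 rows. Alternatives used DESeq2 1.42.0, limma-voom and limma 3.58.1 on log2(FPKM + 1), other scalings, filters, a threshold of 0.1, a replicate block and leaving out each library. Only the edgeR fit was tested on simulated counts, and the changes planted there were larger than any seen among the members. The members and the lists were chosen with earlier results of these data known, so no list was given a p-value. Named genes were all mitochondrially encoded members, members called by edgeR or DESeq2, each complex's most abundant nuclear member by FPKM, the nuclear members with the smallest p in each direction, the assembly factors with the smallest p, paralogue sets, and the 5 members with the widest range within a group. The remaining members named, genes of the other lists and overlap partners were added after their values were seen. Every pair of libraries differed beyond sampling noise, with a chi-square of 32.1 or more per degree of freedom.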

Additional observations from a re-analysis of the deposited data

How the results depend on the processing

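With 3 mice a group, the sign of the smaller changes can rest on 1 library. No alternative called a member higher. The count called lower was 2 with DESeq2 (mt-Nd3 and Ndufb5) and 1 at an adjusted p under 0.1 (mt-Nd3), and 0 with RLE factors, library totals, scaling without the mitochondrial genes, limma-voom, a mean of at least 50 counts, without a filter, and each library left out. Same-numbered mice did not deviate together (correlations of -0.03, 0.03 and 0.04), so no pairing by number was seen, which cannot exclude one. Under a replicate block edgeR called 0 members, and the medians were 0.08 (mitochondrial) and -0.05 (nuclear). The edgeR adjusted p under that block was 0.165 for mt-Nd3 and 0.228 for Ndufb5. Leaving out 1 library at a time, the mitochondrial median ran from -0.02 to 0.19, the nuclear median from -0.07 to 0.00, the log2 ratio of the genomes from -0.01 to 0.22, the mitochondrial share's difference from -0.145 to 1.14 percentage points and the nuclear share's from -0.0307 to 0.00234. With LPS 2 and Saline 1 both left out, a choice made after seeing the data, the ratio differed by 0.08. Of 539 log2 changes of named members under the alternatives, 42 changed sign, all small and called on neither side, and the cause was not tested. Under other settings these were mt-Co3 (0.0041), Cox6b1 (0.0045) and Cox8a (0.0065) with library totals, Cox6a2 with FPKM (-0.0027) and limma-voom (-0.014), and Atp5g1 with FPKM (0.019). When 1 library was left out the ranges were -0.054 to 0.17 for mt-Nd2, -0.013 to 0.23 for mt-Nd4l, -0.012 to 0.26 for mt-Nd5, -0.044 to 0.14 for mt-Cytb, -0.079 to 0.11 for mt-Co1, -0.025 to 0.19 for mt-Co2, -0.053 to 0.059 for mt-Co3 and -0.037 to 0.22 for mt-Atp8. Among nuclear genes they were -0.013 to 0.028 for Uqcrc1, -0.025 to 0.11 for Cox6a1, -0.0066 to 0.27 for Cox4i2, -0.087 to 0.22 for Cox6a2, -0.040 to 0.037 for Cox6b1, -0.13 to 0.026 for Cox7a2, -0.065 to 0.037 for Cox8a, -0.028 to 0.13 for Ndufa4, -0.16 to 0.0012 for Atp5g3 and -0.095 to 0.21 for Ndufaf6. Cox4i2 averaged under 50 counts and had no value under that filter.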

Other observations

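Nnt, which encodes the inner membrane transhydrogenase that links NADH to NADPH, had 3.98, 10.7 and 3.97 CPM in LPS 1 to 3, against 4.27, 2.07 and 3.65 CPM in Saline 1 to 3. LPS 2 alone was high and Saline 2 was the lowest, the groups overlapped, and the log2 change was 0.90 (SE 0.524, edgeR adjusted p = 0.787). The gene was singled out after its values were seen. Ucp2, an inner membrane carrier, had 23.5, 27.7 and 24.9 CPM in LPS 1 to 3, against 17.8, 21.7 and 21.6 CPM in Saline 1 to 3. All LPS mice lay above all Saline mice, and the log2 change was 0.32 with an SE of 0.102 (edgeR adjusted p = 0.502). The assembly factor genes Foxred1 of complex I and Sdhaf1 of complex II also lay above Saline in every LPS mouse, with log2 changes of 0.25 and 0.24 and edgeR adjusted p of 0.574 and 0.673. Mterf2 and Trmt10c, which act in mitochondrial transcription and RNA cutting, had log2 changes of -0.29 and -0.28 (edgeR adjusted p = 0.696 for each). Other genes of their list went the other way. Of its 30 genes, 4 lay above Saline in every LPS mouse and 3 below (6.84% of all rows each way). The 4 above were Mterf1a, Fastk, Mtpap and Elac2, with log2 changes of 0.38, 0.14, 0.12 and 0.11. Their edgeR adjusted p ran from 0.702 to 0.799.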
